A study of Mus musculus with 9 samples.

Results

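Mafa, Ppp1r17 and Stum are 3 genes of the mouse retina whose RNA was much lower in oxygen-induced retinopathy (OIR) than in control mice. They were chosen by that fall: among genes called lower in OIR than in control mice, with no overlap between the groups and a mean log2 CPM of at least 1, these 3 had the largest falls. CPM is a gene's count scaled to a common library total, with edgeR's TMM factors to make the libraries comparable. The 3 genes are 3 of 54532 genes in the table, and all 3 were among the 17540 genes with enough counts to be tested. Because the comparison of OIR with control mice made the choice, its values are given for these genes as a description, with no test.

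The 3 genes belong to unrelated families. Mafa encodes MAFA, a large MAF transcription factor of the basic leucine zipper class, best known for switching on the insulin gene in pancreatic beta cells. Its relatives in the retina include NRL, which directs rod photoreceptor fate, and c-MAF. Ppp1r17 encodes the G-substrate, a small protein that cGMP-dependent protein kinase phosphorylates and that then inhibits protein phosphatases 1 and 2A. It is best known from cerebellar Purkinje cells. Stum is the mouse counterpart of a Drosophila gene required for mechanical sensing in proprioceptive neurons, and much less is known of it in mammals.

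RNA from whole retinas of 9 wild-type C57BL/6 mice was sequenced at postnatal day 17 (P17), with 3 mice in each of 3 groups. Control mice were raised in room air and are labelled as having received DMSO. OIR mice were exposed to high oxygen as pups, which closes off retinal capillaries, and on return to room air at P12 the underperfused retina becomes hypoxic. OIR mice received DMSO vehicle, and treated OIR mice received 1 intraocular injection of 32-134D, an inhibitor of hypoxia-inducible factors (HIFs), at P12; the labels give its amount as 70 ng in one field and as 70 ng/µl in others. No group carried a transgene or a deletion. The mice are called by the numbers in their labels, which are control 1, 6 and 7, OIR 3, 5 and 6, and treated OIR 2, 5 and 10.

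The libraries held 16028731 to 27213184 counts, with 16864135 to 27213184 in control mice, 18556723 to 21071371 in OIR mice and 16028731 to 18560178 in treated OIR mice. Rod markers were abundant in every library, at 35323 to 62529 summed CPM over 8 genes. Summed CPM, here and below, was taken on total counts alone, with no TMM factor. Treated OIR mouse 2 stood apart from the other libraries: crystallin genes, which encode the structural proteins of the lens, held 15.8% of its counts against 0.00871% to 0.186% in the other 8. Treated fold changes, shares, spreads and correlations of the 3 genes are given below with and without this mouse, several of these omissions having been added after the data were seen. By their Xist and Y-linked counts, 4 mice were female (control 1, OIR 3, and treated OIR 2 and 5) and 5 were male.

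Of the 3 genes only Stum was matched in the RefSeq promoter table, which gives 250 bases before and 50 bases after the start of transcription. The window is shown because the study tested a HIF inhibitor and HIFs bind short core sequences. It lies at chr1:180483455-180483754 on the minus strand of GRCm38.p6 and is written 5′ to 3′ along the gene. The window holds the annotated starts of transcripts Stum-201 and Stum-202. The rest of the 6 annotated Stum transcripts start outside it. Capitals mark matches to the HIF core GCGTG or to its reverse complement CACGC.

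Stum promoter: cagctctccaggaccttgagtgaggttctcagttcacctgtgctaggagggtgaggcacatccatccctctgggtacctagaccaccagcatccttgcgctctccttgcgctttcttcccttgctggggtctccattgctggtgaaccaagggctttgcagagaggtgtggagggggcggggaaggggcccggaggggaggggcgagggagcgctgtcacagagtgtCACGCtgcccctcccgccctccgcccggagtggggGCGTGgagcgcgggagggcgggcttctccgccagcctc

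The Stum window had 66.3% G and C, higher than in 84.4% of the 32851 promoters of the table, whose median was 52.7%. It held 15 CpG dinucleotides. The HIF core GCGTG matched 2 times, once on each strand, and 32.4% of all promoter windows held at least 1 match. The other HIF core searched, ACGTG, had no match here and had 1 or more in 19.6% of windows. The MAF core TGCTGA had no match (19.5% of windows). The GC box GGGCGG matched 4 times (35.7% of windows), the E-box CANNTG 1 time (72.3% of windows) and the TATA box TATAAA not at all (13.6% of windows). Both strands were searched for each motif, and a match describes letters in this window, not a bound site.

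Mafa rested on the fewest counts of the 3 genes. Control mice 1, 6 and 7 had 2.82, 2.89 and 3.54 log2 CPM, a mean of 3.09 ± 0.40 (SD, n = 3). OIR mice 3, 5 and 6 had 0.63, −0.24 and −0.28 log2 CPM, a mean of 0.03 ± 0.51 (SD, n = 3). All OIR mice lay below all control mice. These levels rested on 148 to 200 counts in control mice and on 16 to 27 counts in OIR mice, so that 16 counts had an exact Poisson 95% interval of 9.15 to 26.0, which covers counting error only.

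Ppp1r17 was the most abundant of the 3 per unit of length. Its level was 4.20, 4.60 and 4.40 log2 CPM in control mice 1, 6 and 7, a mean of 4.40 ± 0.20 (SD, n = 3). It was 1.79, 1.25 and 0.99 log2 CPM in OIR mice 3, 5 and 6, a mean of 1.35 ± 0.41 (SD, n = 3). The highest OIR mouse was thus far below the lowest control mouse. The counts were 326 to 525 in control mice and 42 to 63 in OIR mice.

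Stum showed the smallest of the 3 falls. Control mice 1, 6 and 7 had 3.81, 4.32 and 4.62 log2 CPM, a mean of 4.25 ± 0.41 (SD, n = 3). OIR mice 3, 5 and 6 had 1.70, 2.06 and 1.39 log2 CPM, a mean of 1.72 ± 0.33 (SD, n = 3), again with no overlap with control mice. The counts were 381 to 401 in control mice and 56 to 87 in OIR mice.

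In the edgeR fit over all 9 mice, the log2 fold change of OIR against control mice was −3.15 (SE 0.52) for Mafa, −3.07 (SE 0.53) for Ppp1r17 and −2.58 (SE 0.42) for Stum. These are falls of 8.88-fold, 8.42-fold and 5.98-fold, beside a median log2 fold change over all tested genes of 0.03. As a share of the control mean in CPM, OIR retinas kept 11.3% of Mafa, 11.9% of Ppp1r17 and 16.7% of Stum. In all, 33 of 17540 genes were called lower in OIR mice (0.188%) by an adjusted p below 0.05 and a log2 fold change below −1. Without treated OIR mouse 2 in the fit 723 genes were called, without treated OIR mouse 10 there were 75, and without any 1 of the other 7 mice there were 0. Every OIR mouse was below every control mouse for 17.2% of tested genes. Since the retinas were sequenced whole, fewer cells that carry these transcripts and less of the transcripts per cell cannot be told apart.

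**Figure D1:**
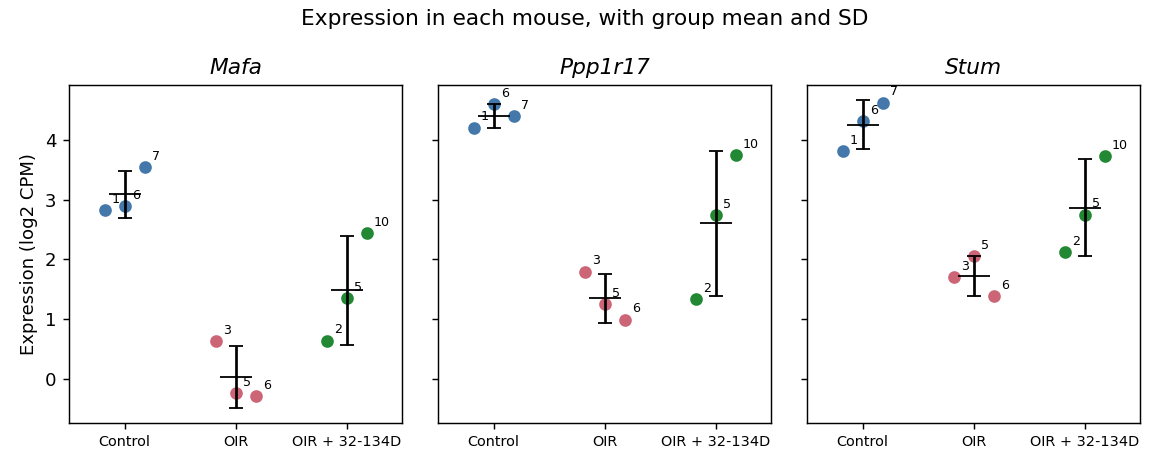
Level of Mafa, Ppp1r17 and Stum in each of the 9 mice, as log2 CPM on the vertical axis, by group. Each numbered point is 1 mouse, and the black marks are the group mean and SD (n = 3). Control mice lie between 2.82 and 4.62, OIR mice between −0.28 and 2.06, and treated OIR mice 2, 5 and 10 ascend in that order in all 3 panels.

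Just outside the choice lay the next genes in the order of falls that met the same conditions. They were Efna3, which encodes ephrin-A3, at −2.15 (SE 0.30), 1700023F06Rik at −2.07 (SE 0.35) and Dok5, an adaptor of receptor tyrosine kinases, at −1.99 (SE 0.32). Of the 33 genes called lower, 31 met the conditions on overlap and level. Among all 17540 tested genes, with no condition on the test or on level, the 3 falls ranked 32, 38 and 72, since other genes with larger fitted falls were not called or were at low levels.

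Per kilobase of transcript, the order of the genes was the same in control and treated OIR mice. Ppp1r17 had 12.0 ± 1.64 RPKM in control mice, Mafa 3.15 ± 0.926 and Stum 2.64 ± 0.722 (SD, n = 3 each). The control means of Mafa and Stum differed by less than either SD. In OIR mice Ppp1r17 had 1.43 ± 0.436 RPKM, Stum 0.440 ± 0.105 and Mafa 0.354 ± 0.150, and again Stum and Mafa differed by less than the SD of either. After treatment the levels were 4.24 ± 3.15 RPKM for Ppp1r17, 1.13 ± 0.737 for Mafa and 1.08 ± 0.621 for Stum. Among tested genes ranked by RPKM, Ppp1r17 moved from the 74.8 percentile in control to the 28.6 percentile in OIR mice, Mafa from 43.7 to 9.78 and Stum from 40.0 to 12.1.

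The genes were not chosen by any difference of the treated OIR mice, but these mice were not outside the choice. They were part of the fit that gave the calls and of the mean log2 CPM over all 9 mice. Each comparison of treated OIR mice also shares either the control or the OIR mice that made the choice. The levels after 32-134D are given with that limit. For Mafa, treated OIR mice 2, 5 and 10 had 0.64, 1.35 and 2.45 log2 CPM, a mean of 1.48 ± 0.91 (SD, n = 3), from 23, 40 and 104 counts. For Ppp1r17 they had 1.33, 2.74 and 3.75, a mean of 2.61 ± 1.22, from 38, 107 and 260 counts. For Stum they had 2.12, 2.75 and 3.72, a mean of 2.86 ± 0.81, from 67, 108 and 255 counts. Mouse 2 was lowest, mouse 5 intermediate and mouse 10 highest for every gene. This order held with TMM, upper-quartile, RLE and total-count scaling. It also held with TMM and a prior count of 0.5 in place of 2 in the log.

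All treated OIR mice were below all control mice for each of the 3 genes, which held for 12.2% of tested genes. The log2 fold change of treated OIR against control mice was −1.47 (SE 0.48; edgeR adjusted p = 0.186) for Mafa, −1.50 (SE 0.50; edgeR adjusted p = 0.191) for Ppp1r17 and −1.28 (SE 0.40; edgeR adjusted p = 0.174) for Stum. None of the 3 was called, in a comparison in which 1 gene of 17540 was called lower (0.0057%). By DESeq2 on all 9 mice the adjusted p was 0.046, 0.0378 and 0.0317 in the same order, and by limma-voom with sample weights 0.0419, 0.0253 and 0.0346. With only the 2 groups compared in the fit, the adjusted p was 0.0765, 0.0774 and 0.0709 by DESeq2 and 0.290, 0.295 and 0.290 by edgeR, so that the call depended on both the tool and the mice fitted. As a share of the control mean in CPM, treated retinas had 35.8% of Mafa, 35.2% of Ppp1r17 and 41.1% of Stum, or 45.2%, 47.1% and 50.7% without mouse 2. In mouse 10 those shares were 62.0%, 63.2% and 67.4%, and in mouse 2 they were 16.9%, 11.4% and 21.8%.

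Against OIR mice, the treated mean was higher for all 3 genes and no difference passed the test. The log2 fold change was 1.68 (SE 0.51; edgeR adjusted p = 0.984) for Mafa, 1.57 (SE 0.52; edgeR adjusted p = 0.990) for Ppp1r17 and 1.30 (SE 0.41; edgeR adjusted p = 0.984) for Stum. By edgeR 0 of 17540 genes were called higher in treated OIR mice (0%), 823 genes had an unadjusted p below 0.05 in either direction, DESeq2 on all 9 mice called 6 higher and limma-voom called 0. Every treated mouse was above every OIR mouse for Mafa and Stum, as for 3.74% of tested genes, and 2 of the 3 treated mice were for Ppp1r17. For mouse 2 the margin was 0.64 against 0.63 log2 CPM in the highest OIR mouse for Mafa, and 2.12 against 2.06 for Stum. The 23 counts of Mafa in mouse 2 had an exact Poisson 95% interval of 14.6 to 34.5, and the 27 counts in OIR mouse 3 one of 17.8 to 39.3, so that these mice could not be told apart at this depth. The separation was lost for Mafa with upper-quartile scaling or with total counts alone, and for Stum with total counts alone.

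Without treated OIR mouse 2, the library rich in crystallin counts, the log2 fold change of treated OIR against OIR mice was 2.04 (SE 0.45) for Mafa, 2.02 (SE 0.33) for Ppp1r17 and 1.64 (SE 0.34) for Stum, each with an edgeR adjusted p = 0.190. Against control mice it was −1.12 (SE 0.43) for Mafa, −1.07 (SE 0.33) for Ppp1r17 and −0.96 (SE 0.34) for Stum without that mouse, with edgeR adjusted p = 0.301, 0.219 and 0.264. Without treated OIR mouse 10 the difference from OIR mice was 1.02 (SE 0.44), 0.84 (SE 0.41) and 0.74 (SE 0.33), with an edgeR adjusted p above 0.99 for all 3 genes. The spread between the treated mice exceeded that of 89.3% of tested genes for Mafa, 94.1% for Ppp1r17 and 86.7% for Stum, and of 95.3%, 94.5% and 94.0% without mouse 2. The median SD over all tested genes was 0.25 log2 units in treated mice.

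The distance between control and OIR means on the log2 scale gives a common ruler for the 3 genes. The mean of the treated mice still showed 52.6% of the fall of Mafa, 58.8% of that of Ppp1r17 and 54.7% of that of Stum. Without treated mouse 2 these shares were 38.9%, 37.9% and 40.0%, and without treated mouse 10 they were 68.5%, 77.6% and 71.6%. In mouse 2 the shares were 80.1%, 101% and 84.0%, in mouse 5 they were 56.8%, 54.5% and 59.2%, and in mouse 10 they were 21.02%, 21.3% and 20.8%. The other 30 genes called lower in OIR mice had a median of 47.9% of their fall still present, with a range of 14.2% to 96.9%. Their medians were 72.7% in mouse 2, 50.8% in mouse 5 and 35.1% in mouse 10. The order of mice 2, 5 and 10 seen for the 3 genes occurred in 15 of the other 30 genes and in 23.4% of all tested genes. These shares use the OIR and control means that chose the genes, and no test was made of them.

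**Figure D2:**
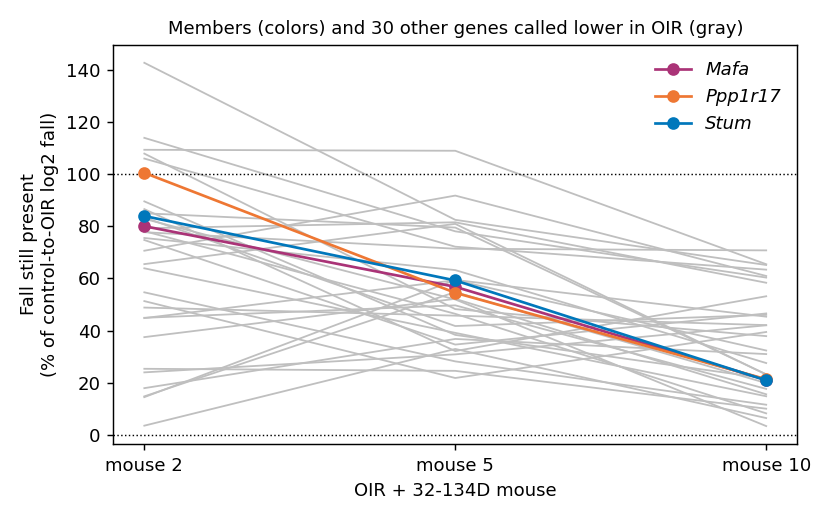
Share of the fall from control to OIR (percent of the difference in log2 CPM) still present in each treated OIR mouse, where 0 is the control mean and 100 the OIR mean. Each line joins the 3 mice for 1 gene, in color for Mafa, Ppp1r17 and Stum and in gray for the other 30 genes called lower. The colored lines meet at 20.8% to 21.3% in mouse 10 and spread from 80.1% to 101% in mouse 2.

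Sex was not balanced between the groups, and the highest treated mouse was the only male of its group. Within the males, OIR mice (n = 2) were lower than control mice (n = 2) by −3.48 log2 CPM for Mafa, −3.37 for Ppp1r17 and −2.75 for Stum. Between the single females of these groups the differences were −2.20, −2.41 and −2.11. The treated females (n = 2) differed from the OIR female by 0.37 for Mafa, 0.24 for Ppp1r17 and 0.73 for Stum, while the treated male differed from the OIR males (n = 2) by 2.71, 2.63 and 2.001. In the treated group sex and the mouse cannot be told apart. With sex as a covariate, the edgeR log2 fold change of treated OIR against OIR mice was 1.68 for Mafa, 1.58 for Ppp1r17 and 1.41 for Stum.

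The 3 genes followed one another closely from mouse to mouse. Across the 9 mice, as a description with no test, Pearson's r of log2 CPM was 0.98 between Mafa and Ppp1r17, 0.97 between Mafa and Stum and 0.97 between Ppp1r17 and Stum, where the shared fall in OIR mice, which chose the genes, sets much of the value. Without treated mouse 2 these were 0.99, 0.97 and 0.97. With each group's mean removed, r was 0.89, 0.81 and 0.84 over 9 mice and 0.84, 0.66 and 0.69 without that mouse. Over control and OIR mice alone, with group means removed, it was 0.71, 0.40 and 0.37, lower for each pair than with the treated mice.

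Other genes followed them at least as closely. The 5 genes most like Mafa by Pearson's r over the 9 mice were Tanc2, a postsynaptic scaffold protein (0.993), Reep2, a shaper of the endoplasmic reticulum (0.987), Prmt2, an arginine methyltransferase (0.985), Kctd8, an auxiliary subunit of GABA-B receptors (0.984), and Lrrc4b, a synaptic adhesion protein (0.982). For Ppp1r17 the genes reported here were the G protein subunit Gna11 (0.986), the orphan receptor Gpr6 (0.984), the oxytocin receptor gene Oxtr (0.983) and Slc32a1, the vesicular transporter of GABA and glycine (0.983). For Stum they were Asap1, a GTPase-activating protein (0.989), Slc18a3, the vesicular acetylcholine transporter (0.981), Sidt1 (0.980), the growth factor gene Nrg2 (0.977) and Kctd8 (0.976). In all, 77 genes for Mafa, 137 for Ppp1r17 and 64 for Stum had r of 0.95 or more, of 17539 other genes each. All points share the same 9 libraries, and the top genes depended on the mice used: without treated OIR mouse 2, only 2, 1 and 0 of the 5 genes stayed among the 5 for Mafa, Ppp1r17 and Stum.

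Tanc2 had a log2 fold change of −0.83 in OIR against control mice, Asap1 −0.69 and Gna11 −0.46. Slc32a1 had −1.46 (SE 0.32). Kctd8, named for both Mafa and Stum, had −1.60 (SE 0.29) and was itself called lower. Slc18a3 had the lowest value of the genes named for likeness, −5.25 (SE 1.11), and was not called. It had 458 to 706 counts in control mice and 8 to 27 in OIR mice. In treated OIR mice 2, 5 and 10 it had 14, 28 and 361 counts.

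Of the other large MAF genes, Nrl and Maf were called in none of the 3 comparisons. Nrl had a log2 fold change of −0.18 (SE 0.29) in OIR against control mice and Maf 0.28 (SE 0.68). In treated OIR against control mice Maf had 1.65 (SE 0.70; edgeR adjusted p = 0.252). The SD of Maf was 1.67 log2 CPM in treated OIR mice, against 0.23 in control and 0.25 in OIR mice. Because the fit shares its spread over all groups, this widens both SEs of Maf. Nrl was at 427 RPKM in control mice, far above Mafa at 3.15 RPKM. Among the 3 small MAF partners, which lack a transactivation domain, Maff had 0.96 (SE 0.63), Mafk 0.68 (SE 0.19; edgeR adjusted p = 0.0923) and Mafg −0.02, and none was called.

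Genes that work with MAFA in pancreatic beta cells were mostly at or near the floor of detection in these retinas. Of 12 such genes, 9 had too few counts to be tested, with 0 to 8 counts in any mouse, and Ins1, Pdx1, Nkx2-2 and G6pc2 had 0 counts in all 9 libraries. Ins2 had at most 7 counts in a mouse. The 3 that were tested have their own roles in retinal neurons and were not called: Pax6 had a log2 fold change of −0.69 (SE 0.19; edgeR adjusted p = 0.0923), Isl1 0.16 and Neurod1 0.56 (SE 0.14; edgeR adjusted p = 0.0707).

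The enzymes that the G-substrate acts on were not called. The 5 genes for catalytic subunits of protein phosphatases 1 and 2A had a median log2 fold change of −0.09 in OIR against control mice, with 0 called. The cGMP-dependent kinases, which phosphorylate the G-substrate, had 0.68 (SE 0.30) for Prkg1 and −0.02 for Prkg2. Of 11 other inhibitors and regulators of protein phosphatase 1 that were tested, 7 had negative log2 fold changes, the median was −0.33, 5 had every OIR mouse below every control mouse, against 17.2% of all tested genes, and 0 were called (0.188% of all tested genes were called lower). Ppp1r1a, inhibitor 1, had −0.54 (SE 0.08; edgeR adjusted p = 0.0407), which passed the test and not the limit on fold. Ppp1r1c had the value nearest to Ppp1r17, −2.49 (SE 0.95; edgeR adjusted p = 0.159), at 0.347 RPKM in control mice.

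Stum was set beside genes for mechanically gated channels, since its fly counterpart acts in mechanical sensing. Of 11 such genes, 9 were tested, 5 had negative log2 fold changes in OIR against control mice and 0 were called, with a median of −0.29. The 3 lowest were potassium channels of the 2-pore family that respond to membrane stretch: Kcnk4 had −2.22 (SE 0.64; edgeR adjusted p = 0.0965), Kcnk2 −2.05 (SE 0.49; edgeR adjusted p = 0.0679) and Kcnk10 −1.999 (SE 1.07; edgeR adjusted p = 0.287). Every OIR mouse was below every control mouse for these 3 and for Tmem63b and Tmem63c, 5 of the 9 tested, against 17.2% of all tested genes. In treated OIR against OIR mice they had 1.30, 1.54 and 0.77, none of them called.

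**Figure D3:**
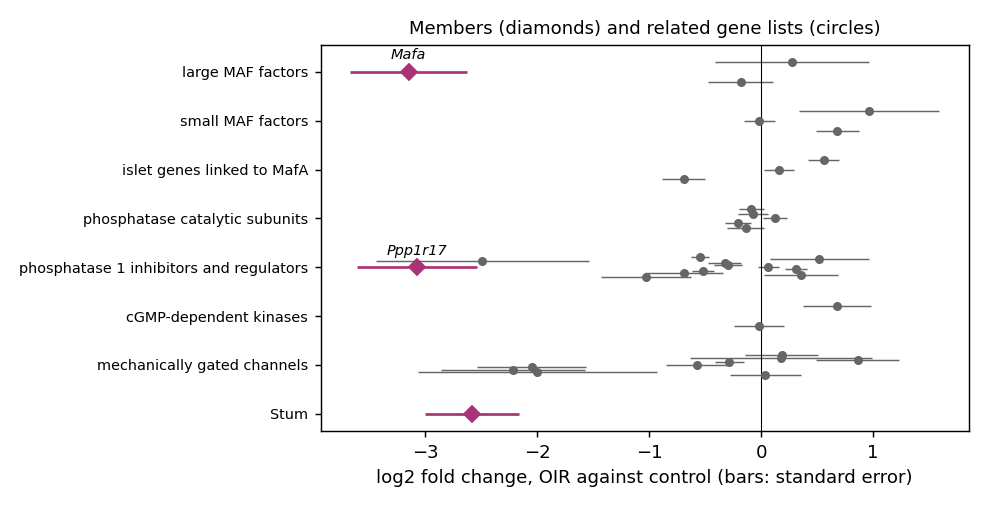
Log2 fold change of OIR against control mice (horizontal axis) with its standard error (bars) for Mafa, Ppp1r17 and Stum (diamonds) and for tested genes of the related lists (gray circles, 1 gene each). Mafa and Ppp1r17 lie at −3.15 and −3.07 on the rows of their families, Stum lies at −2.58 on the last row, and none of the gray genes was called.

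Amacrine and ganglion cell markers were at lower levels in the same OIR mice, although none was called, and their part in the values above was not tested. All 14 amacrine markers had negative log2 fold changes in OIR against control mice, with a median of −1.74. For 13 of them every OIR mouse was below every control mouse, yet 0 of 14 were called. Their edgeR adjusted p ran from 0.0599 for Tfap2a to 0.414 for Tfap2b. Chat had a log2 fold change of −6.39 (SE 1.49; edgeR adjusted p = 0.0655). All 10 ganglion cell markers were negative as well, with a median of −1.98, no overlap between the groups for any of the 10, and 0 called. Here the edgeR adjusted p ran from 0.0656 for Nefh to 0.331 for Slc17a6. Calls of either marker list by the other tools, or without treated OIR mouse 2, are not given here. Over all tested genes the median was 0.03 and 17.2% did not overlap in this direction. Summed over the amacrine markers, on total counts alone, control mice had 958 to 1172 CPM, OIR mice 335 to 588 CPM and treated mice 257 to 1002 CPM. Summed over the ganglion cell markers, the ranges were 1639 to 2022, 195 to 779 and 104 to 1345 CPM. No amacrine or ganglion cell marker was absent from the control mice, and Chat, the enzyme of acetylcholine synthesis that defines starburst amacrine cells, had 1 to 4 counts in OIR mice against 241 to 269 in control mice, and 8, 3 and 242 counts in treated OIR mice 2, 5 and 10. Neurod6, a transcription factor of a subset of amacrine cells, was at 0 counts in OIR mice 5 and 6 and at 3 in OIR mouse 3. It was low throughout, with 18, 24 and 21 counts in control mice 1, 6 and 7. Treated OIR mice 2, 5 and 10 had 14, 8 and 21 counts of it.

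The 3 genes were then set beside both marker lists in each mouse. Relative to the control mean, the mean log2 CPM of the 3 genes was −2.54, −2.89 and −3.21 in OIR mice 3, 5 and 6. It was −2.55 in treated mouse 2, −1.63 in treated mouse 5 and −0.61 in treated mouse 10. The amacrine markers ranged from −1.74 in OIR mouse 3 to −2.73 in OIR mouse 6, and were at −2.39, −1.29 and −0.19 in the same treated mice. The ganglion cell markers were at −1.16, −1.93 and −3.78 in OIR mice 3, 5 and 6. They were at −4.70, −0.49 and −0.43 in treated mice 2, 5 and 10. On this scale treated mouse 2 was the lowest of all 9 for the ganglion cell markers and within the range of the OIR mice for the amacrine markers. By summed CPM, which has no TMM factor, treated mouse 2 was the lowest of all 9 for both lists. All 3 sets of genes took the order of mice 2, 5 and 10 from lowest to highest. Over the 9 mice, Pearson's r with the mean of the amacrine markers was 0.96 for Mafa, 0.98 for Ppp1r17 and 0.97 for Stum, and with the mean of the ganglion cell markers 0.77, 0.83 and 0.76. Without treated mouse 2 it was 0.98 for each with the amacrine markers, and 0.87, 0.87 and 0.85 with the ganglion cell markers. The fall in OIR mice, which chose the 3 genes and is shared by both lists, sets much of these values. With each group's mean removed, r over the 9 mice was 0.92, 0.96 and 0.93 with the amacrine markers. With the ganglion cell markers it was 0.77, 0.89 and 0.73. It was 0.74, 0.84 and 0.65 with the endothelial markers, and lower with the rod, cone and bipolar markers. All these correlations are descriptions over the same libraries, and the differences between them were not tested.

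**Figure D4:**
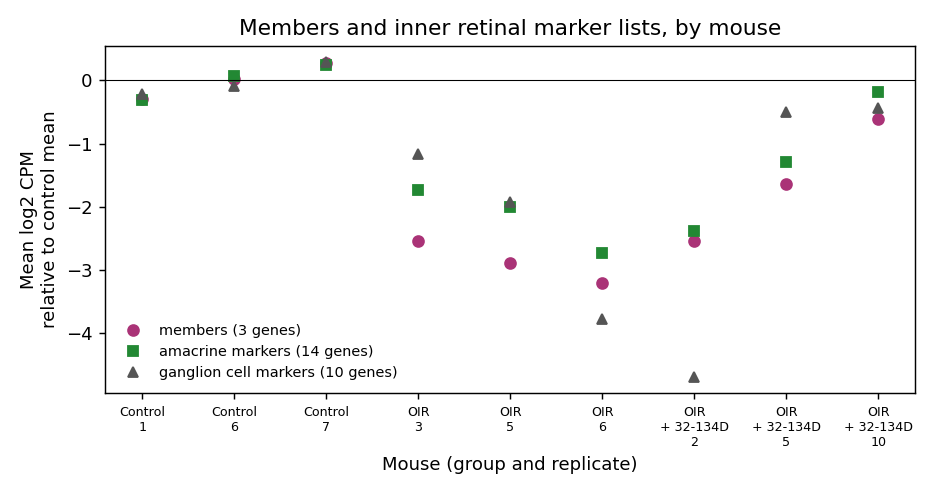
Mean log2 CPM relative to the control mean (vertical axis) in each of the 9 mice for Mafa, Ppp1r17 and Stum together (circles), 14 amacrine markers (squares) and 10 ganglion cell markers (triangles). All 3 sets ascend from treated OIR mouse 2 to 5 to 10, and the triangle of treated OIR mouse 2 is the lowest point, at −4.70.

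The median log2 fold change of OIR against control mice was 0.20 over 10 bipolar markers, 0.53 over 5 horizontal cell markers, −0.01 over 8 rod markers, 0.03 over 8 cone markers, 0.45 over 7 Müller glia markers, 0.18 over 6 endothelial markers and 0.37 over 7 microglia markers. Of these 51 genes, 0 were called lower and 1 endothelial marker was called higher, where 0.188% of all tested genes were called lower and 20 of 17540 (0.114%) higher. Over 6 pigment epithelium markers the median was −0.44, with 4 negative and 0 called. For 2 of the 6 every OIR mouse was below every control mouse, against 17.2% of all tested genes.

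The 3 genes lie on different chromosomes, and none of their nearest tested neighbors was called in OIR against control mice. Mafa (ENSMUSG00000047591) lies at 75745490 to 75748228 on the minus strand of chromosome 15 (GRCm38) and has 1 annotated transcript with 1 exon. Its nearest tested neighbors, Rhpn1 and Zc3h3, had log2 fold changes of −0.07 and 0.11 in OIR against control mice. Ppp1r17 (ENSMUSG00000002930) lies at 56017497 to 56032689 on the plus strand of chromosome 6 and has 1 annotated transcript with 5 exons. Pde1c, 37.1 kb away, had −0.33, and Neurod6, 336 kb away on the other side, had −4.24 (SE 0.93; edgeR adjusted p = 0.0612) on 0 to 24 counts. Stum (ENSMUSG00000053963) lies at 180432387 to 180483504 on the minus strand of chromosome 1 and has 6 annotated transcripts with 2 to 4 exons. Itpkb had 0.33 and Parp1 0.34. Gm37984, which overlaps Stum on the same strand, had 0 counts in every mouse.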

How the data were processed

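The deposited table holds raw read counts per gene for the 9 mice, made by the authors. CASAVA and HISAT are named in the submitters' processing notes, with no version; the counting tool, annotation and strand setting are not given in the sources used here. Gene positions were compared with GENCODE M21 (GRCm38), where 98.3% of 54409 shared identifiers had the same position. Counts were tested with edgeR 4.0.16 in R 4.3.3 (TMM, filterByExpr by group, quasi-likelihood fit with 1 mean per group over all 9 mice), with Benjamini-Hochberg adjustment over all tested genes, after the scripts were tested on simulated counts with known changes. Each edgeR SE was derived from the test, as the absolute log2 fold change divided by the square root of the quasi-likelihood F. RPKM used the gene lengths in the table. DESeq2 1.42.0 and limma 3.58.1 were alternatives, with other scalings, filters, sex as a covariate and the omission of each mouse. The labels give 1 mouse per library, and no 2 libraries held the same counts. Genes and lists were chosen with earlier results of these data known. Named genes were Mafa, Ppp1r17 and Stum, related genes that were called or closest, the 5 genes most like each, the 3 next falls, genome neighbors, and a few markers named after their values were seen. Promoter sequence is from RefSeq (GRCm38.p6). Some genes that these rules name are not reported here.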

Additional observations from a re-analysis of the deposited data

How the results depend on the processing

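The 3 falls in OIR mice kept their direction under all alternatives run: leaving out each mouse gave log2 fold changes of −3.54 to −2.88 for Mafa, −3.33 to −2.90 for Ppp1r17 and −2.77 to −2.38 for Stum, and the other settings −3.17 to −3.03, −3.17 to −3.01 and −2.60 to −2.50. For treated OIR against control mice, leaving out each mouse gave −2.13 to −1.12 for Mafa, −2.23 to −1.07 for Ppp1r17 and −1.84 to −0.96 for Stum (edgeR adjusted p 0.114 or more). DESeq2 on all 9 mice called all 3, at −1.48, −1.52 and −1.29, as did limma-voom at −1.36, −1.54 and −1.27, while DESeq2 and edgeR on the 2 groups compared called none of them (adjusted p 0.0709 to 0.0774 and 0.290 to 0.295). For treated OIR against OIR mice the values ran from 1.02 to 2.07, 0.84 to 2.02 and 0.74 to 1.64, with adjusted p of 0.190 or more, and 0.205 or more with all mice. The share of the fall still present ran from 38.9% to 68.5% for Mafa, 37.9% to 77.6% for Ppp1r17 and 40.0% to 71.6% for Stum when 1 mouse was left out.

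The call behind the choice was less stable than the values. Genes called lower in OIR mice numbered 33, and 512 by DESeq2 on all 9 mice, 634 by edgeR and 743 by DESeq2 on the 2 groups compared, 614 by limma-voom, 4 with total counts alone, 196 with no filter, 71 with 10 counts in every mouse, 89 by adjusted p alone and 0 with sex as a covariate. Without treated OIR mouse 2 they numbered 723, without mouse 10 of that group 75, and 0 without any 1 of the other mice, although 2845 or more genes had an unadjusted edgeR p below 0.05 in each of those fits. Genes called lower in treated OIR against control mice numbered 1, and 71, 0, 51 and 79 by those 4 tools in that order, 0 with total counts alone, RLE factors or sex, 5 with no filter, 2 by adjusted p alone and 0 to 3 without 1 mouse. Genes called higher in treated OIR against OIR mice numbered 6 by DESeq2 on all 9 mice and 6 on the 2 groups, and 0 otherwise. By Spearman's rho 0, 0 and 1 of the 5 genes most like Mafa, Ppp1r17 and Stum stayed among the 5, and without treated OIR mouse 2 it was 2, 1 and 0. No paired analysis was possible because any 2 groups share at most 1 mouse number. Mafa in OIR mice rested on 16 to 27 counts, which limits how finely its lowest levels can be ordered.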
